A study of Rattus norvegicus with 13 samples.

Results

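Genes of iron handling and haem were followed in RNA from rat kidney glomeruli, the capillary tufts that filter blood. The 8 genes chosen were Hmox1, Fth1, Ftl1, Tfrc, Tf, Hamp, Ireb2 and Aco1, and a probe set counted as a member if the platform annotation gave it exactly 1 symbol and that symbol was one of these. This rule found 6 of the 15923 probe sets, covering 5 of the 8 genes: 1 each for Hmox1, Hamp, Ireb2 and Aco1, and 2 for Tfrc. Fth1, Ftl1 and Tf had no such probe set. The 3 probe sets whose annotation names them together with other genes are described separately and are credited to no gene. The series holds 13 one-colour arrays of untreated Lewis-Hsd rats aged 18 weeks on a regular diet, in 3 groups. The LCM20 group (n = 4, titled LCM 20) and the LCM800 group (n = 5, titled LCM 800) hold glomeruli cut by laser capture microdissection from frozen sections of 10 µm, whose RNA went through 2 rounds of amplification. What the 20 stands for is not stated, since the protocol names about 800 glomerular cross-sections for both. The sieved group (n = 4, titled iron) holds glomeruli of the opposite kidney, which was perfused with iron oxide particles so that its glomeruli could be collected by magnet and sieve, and whose RNA was not amplified. Iron oxide perfusion, isolation and amplification all differ between the microdissected and the sieved groups, so their parts in any difference cannot be told apart. Not every label speaks of the same material: the sample description mentions embryos and the extraction text also names anti-Thy1.1 rats.

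Cells take up iron from transferrin (Tf), which binds the transferrin receptor (Tfrc) and is internalised. Iron not in use is stored inside shells of ferritin heavy (Fth1) and light (Ftl1) chains. The iron regulatory proteins encoded by Aco1 and Ireb2 bind stem-loops in messenger RNAs when iron is scarce, which blocks translation of ferritin and stabilises Tfrc messenger RNA, and Aco1 protein with an iron-sulfur cluster works instead as cytosolic aconitase. Hmox1 encodes haem oxygenase, which opens the haem ring and releases its iron, and Hamp encodes hepcidin, the mainly hepatic hormone that makes cells degrade the iron exporter ferroportin. In the kidney, filtered transferrin and iron are taken up chiefly by proximal tubule cells.

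The array signals are linear intensity units, as deposited, with the same trimmed mean on every array. Precision depends on how many arrays a group has and on the spread of each probe set. Changes are differences of mean log2(signal + 65.3) with the SE of a limma fit over 11106 probe sets, where 65.3 is the 20th percentile of all signals, and adjusted p values are two-sided, after Benjamini and Hochberg, with 0.05 as the threshold. The labels call the samples biological replicates without tying them to single rats. Some features of the arrays touch the results. Within LCM800, replicates 1, 2 and 3 resembled each other (Pearson's r over probe sets of 0.89 to 0.93), as did replicates 4 and 5 (0.94), while pairs across these sets gave 0.72 to 0.81. Sieved replicate 3 gave 0.87 to 0.90 with the other sieved arrays, which gave 0.96 to 0.98 among themselves. Glomerular markers were present in all groups, with summed signals of 5 podocyte genes of 25018 to 39888 in LCM20, 28210 to 39378 in LCM800 and 15198 to 36231 in sieved arrays. The highest sieved sum was that of replicate 3, beside 15198 to 19914 on the other sieved arrays. Against sieved, 2 of the 5 genes rose and 1 fell in LCM20, and 2 rose and 2 fell in LCM800. Among all tested probe sets 26.2% rose and 19.2% fell in LCM20, and 31.8% rose and 20.1% fell in LCM800. The 12 proximal tubule markers, all with probe sets, summed to 9387 to 25603 in LCM20, 13467 to 21613 in LCM800 and 60655 to 111511 in sieved arrays, and sieved replicate 3 had the lowest of the sieved sums. The 3′ minus 5′ difference of the β-actin control, a measure of how far labelled RNA reaches towards the 5′ end, was 1.80 ± 0.45 in LCM20, 2.77 ± 1.03 in LCM800 and 0.55 ± 0.02 in sieved arrays (log2, SD, n = 4, 5 and 4; exact two-sided permutation against sieved, p = 0.0286 and p = 0.0159, or 0.0643 and 0.0476 adjusted over 9 tests). The other controls did not all go this way. GAPDH was 1.14 ± 1.38 in LCM20, 1.22 ± 0.49 in LCM800 and 0.52 ± 0.15 in sieved arrays (n = 4, 5 and 4; exact permutation against sieved, p = 0.543 and p = 0.0159, adjusted 0.611 and 0.0476). Hexokinase was lower, at 0.44 ± 0.31 in LCM20, 0.23 ± 0.33 in LCM800 and 0.73 ± 0.14 in sieved arrays (n = 4, 5 and 4; exact permutation against sieved, p = 0.229 and p = 0.0159, adjusted 0.343 and 0.0476). In the LCM800 group the β-actin difference was 2.80, 3.54 and 4.01 on replicates 1, 2 and 3, and 1.78 and 1.71 on replicates 4 and 5. In whole tissue RNA, fewer cells of a type and less RNA per cell cannot be told apart.

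**Figure D1:**
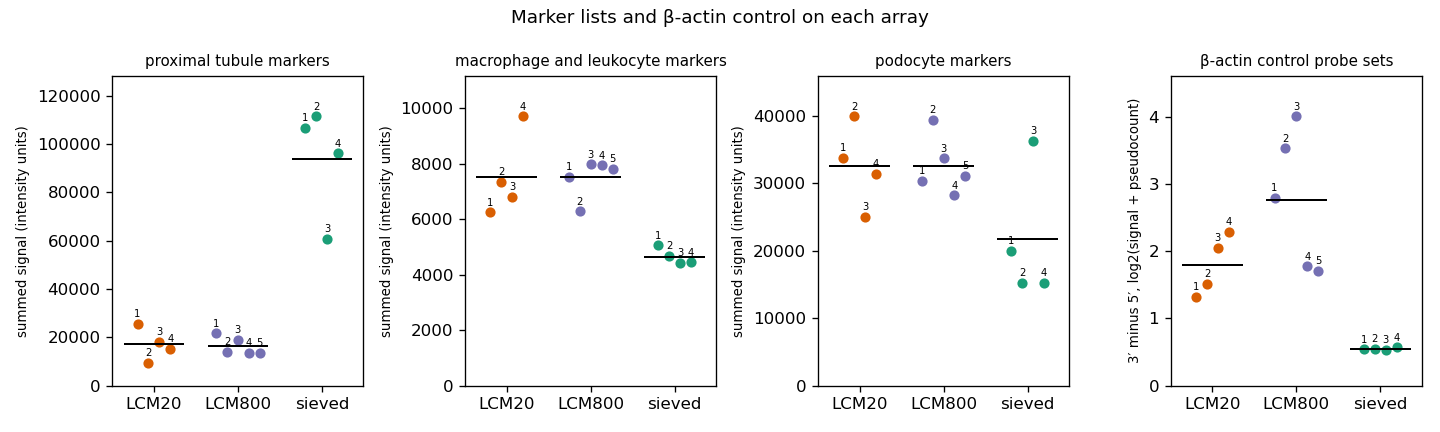
Summed signal of proximal tubule, macrophage and leukocyte, and podocyte markers, and the β-actin 3′ minus 5′ difference, on each array by group; points are arrays with their replicate number and bars are group means. Proximal tubule sums are 60655 or more on every sieved array and 25603 or less on every microdissected array.

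The genes of both iron regulatory proteins had lower signal in microdissected than in sieved glomeruli. Aco1 fell by 1.83 ± 0.29 in LCM20 against sieved arrays (limma, adjusted p = 0.000154) and fell by 2.02 ± 0.28 in LCM800 against sieved arrays (adjusted p = 3.00e-05). Among the 4 member probe sets that passed the filter on low values, it was the only one called as lower in either comparison. The count of member calls is set against the background over all tested probe sets. Of these, 45.3% were called in LCM20 against sieved, 26.2% as higher and 19.2% as lower. In LCM800 against sieved 51.9% were called, 31.8% as higher and 20.1% as lower. Of the 4, 3 were called in LCM20 (2 higher) and 2 in LCM800 (1 higher). These counts of 4 probe sets do not set the genes apart from the array.

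Aco1 (probe set 1386916_at) had signals of 746, 359, 451 and 762 in LCM20. In LCM800 they were 704, 402, 310, 547 and 495. In sieved arrays they were 2476, 2631, 1319 and 2378. Every microdissected array lay below every sieved one, so the groups did not overlap, which held for 43.8% of tested probe sets in LCM20 and 42.8% in LCM800, and sieved replicate 3 was the lowest of its group. The mean signals were 580 ± 205 in LCM20, 492 ± 149 in LCM800 and 2201 ± 597 in sieved arrays (SD, n = 4, 5 and 4). Without sieved replicate 3 the changes were −2.05 in LCM20 and −2.24 in LCM800, and both calls held in all 24 alternatives tried. The Aco1 order over the sieved arrays, with replicate 3 lowest and replicate 2 highest, is also that of the proximal tubule sums (111511 on replicate 2 and 60655 on replicate 3); the part of tubular RNA in the Aco1 difference was not tested. The labels give the sieved glomeruli a purity of over 99% by phase contrast microscopy.

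Ireb2 (probe set 1387440_at), whose protein senses iron through its own degradation and not through an iron-sulfur cluster, was dim on microdissected arrays. It did not pass the filter, with a mean log2 of 6.86 over all arrays against a limit of 7.62. In sieved arrays alone its mean log2 was 7.93. Its signals were 24.3, 16.2, 11.6 and 9.12 in LCM20. They were 33.7, 14.1, 11.2, 24.9 and 22.5 in LCM800. In sieved arrays they were 134, 210, 282 and 121. All 9 microdissected arrays lay under the pseudocount of 65.3 and all 4 sieved arrays above it. In the fit with no filter over 15866 probe sets Ireb2 fell by 1.60 ± 0.18 in LCM20 (limma, adjusted p = 1.31e-05) and fell by 1.50 ± 0.17 in LCM800 (adjusted p = 1.08e-05), where 36.8% and 43.8% of all probe sets were called. These sizes depend on the pseudocount: with none, the changes were −3.62 in LCM20 and −3.16 in LCM800, and with 4 times the pseudocount −0.68 in LCM20 and −0.65 in LCM800. Unlike for Aco1, the highest Ireb2 signal was on sieved replicate 3, the array with the lowest proximal tubule sum, and without that array the changes were −1.43 in LCM20 and −1.33 in LCM800, both past the test.

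The stretches of 250 bases before the annotated start of both genes are shown because these 2 members fell together. They are from RefSeq (build GRCr8), at chr5:60055645-60055894 (plus strand) for Aco1 and chr8:64160838-64161087 (plus strand) for Ireb2, and 5 of the 8 genes matched the promoter table. Capitals mark matches to 6 short motifs searched on both strands, namely the GC box GGGCGG, the bone morphogenetic protein element GGCGCC, the hypoxia element core ACGTG, the cyclic AMP element core TGACGT, the TATA box TATAAA and the STAT element TTCNNNGAA. The hypoxia and cyclic AMP cores can share bases.
Aco1: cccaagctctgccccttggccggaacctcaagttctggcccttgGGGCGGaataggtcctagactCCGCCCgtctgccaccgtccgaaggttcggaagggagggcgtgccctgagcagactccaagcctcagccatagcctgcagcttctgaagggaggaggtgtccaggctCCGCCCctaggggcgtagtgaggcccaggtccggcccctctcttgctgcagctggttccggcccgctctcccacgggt
Ireb2: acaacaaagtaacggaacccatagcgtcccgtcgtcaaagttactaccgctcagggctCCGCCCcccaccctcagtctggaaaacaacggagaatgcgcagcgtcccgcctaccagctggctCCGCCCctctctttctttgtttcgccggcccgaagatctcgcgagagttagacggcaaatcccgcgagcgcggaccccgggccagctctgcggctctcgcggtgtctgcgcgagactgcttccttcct
Both hold the GC box GGGCGG on either strand, 3 times in Aco1 and 2 times in Ireb2, and neither holds TATAAA. The GC box is in 30.5% of 33469 rat promoters of this length and TATAAA in 12.9%, so the matches describe these windows and single out no factor.

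**Figure D2:**
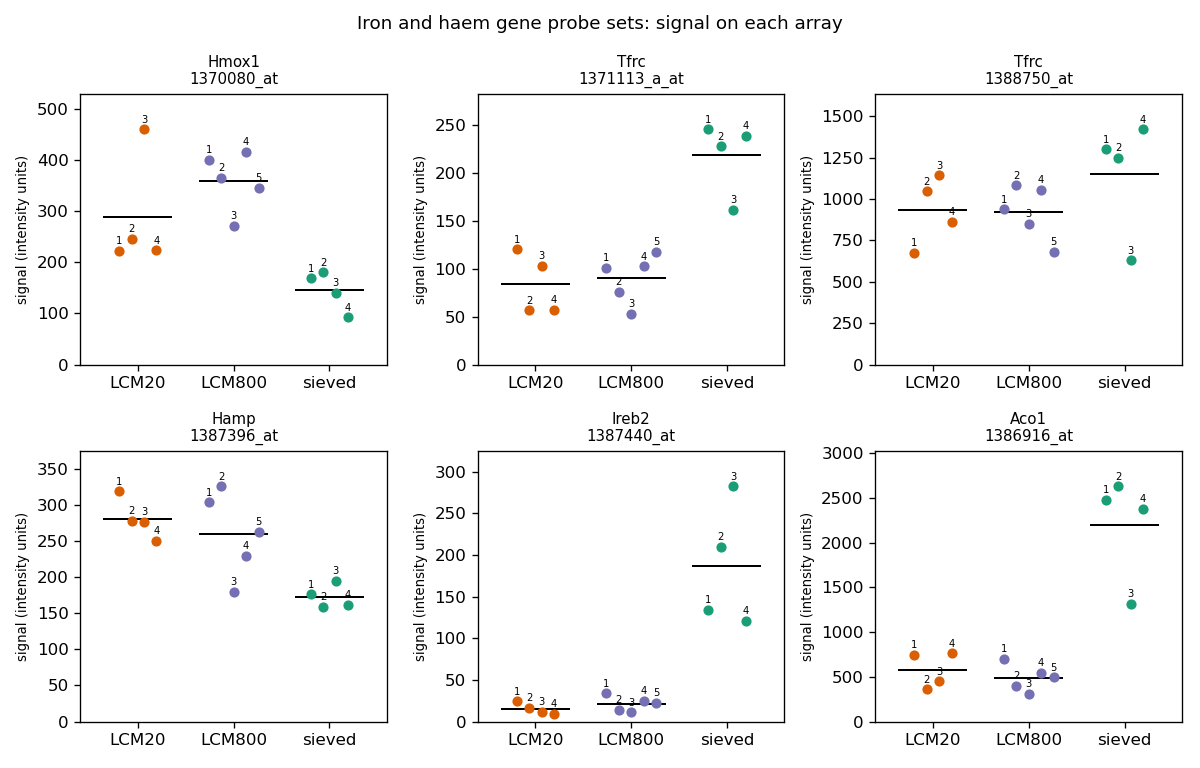
Signal of the 6 member probe sets on each array, in intensity units from 0; points are arrays with their replicate number and bars are group means. Aco1, Ireb2 and the dimmer Tfrc probe set are lower on every LCM20 and LCM800 array than on any sieved array, Hmox1 is higher on every one, and the brighter Tfrc probe set overlaps between groups.

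The transferrin receptor gene Tfrc had 2 probe sets, both with lower means in microdissected glomeruli. The brighter, 1388750_at, did not pass the test in either comparison, and the dimmer, 1371113_a_at, fell in both but lay just under the filter (mean log2 of 7.51 against 7.62). Probe set 1388750_at had signals of 676, 1047, 1144 and 864 in LCM20, and of 938, 1082, 852, 1056 and 680 in LCM800. In sieved arrays it had 1300, 1251, 629 and 1422. All groups overlapped, through sieved replicate 3, which was below all the microdissected arrays; the other sieved arrays were above all of them. The changes were −0.25 (95% interval −0.80 to 0.30; limma, adjusted p = 0.450) in LCM20 and −0.26 (−0.78 to 0.27; adjusted p = 0.392) in LCM800 against sieved. Without sieved replicate 3 they were −0.50 in LCM20 (adjusted p = 0.0899) and −0.51 in LCM800 (adjusted p = 0.0666), about double in size, and still did not pass.

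Tfrc probe set 1371113_a_at had signals of 120, 56.4, 103 and 57.1 in LCM20, and of 101, 76.0, 53.2, 103 and 117 in LCM800. In sieved arrays it had 246, 228, 162 and 239. Here the groups did not overlap, although sieved replicate 3 was again the lowest sieved array. With no filter this probe set fell by 0.94 ± 0.21 in LCM20 (limma, adjusted p = 0.00309) and fell by 0.88 ± 0.20 in LCM800 (adjusted p = 0.00292) against sieved. The LCM800 call ended without LCM800 replicates 1, 2 and 3, at −0.69 (adjusted p = 0.0516). Whether the 2 probe sets moved unequally was tested on their log2 difference within each array, the dimmer minus the brighter. It was −2.74 ± 0.52 in LCM20 and −2.05 ± 0.30 in sieved arrays (SD, n = 4 each; exact two-sided permutation p = 0.114), and −2.67 ± 0.40 in LCM800 (n = 5; exact permutation p = 0.0635 against sieved). Neither passed, where the smallest p the arrays allow is 0.0286 and 0.0159. These log2 values include the pseudocount, which understates the changes of dim signals such as those of 1371113_a_at on microdissected arrays. As ratios of mean signal to sieved arrays, the dimmer probe set was at 0.39 in LCM20 and 0.41 in LCM800. The brighter was at 0.81 in LCM20 and 0.80 in LCM800. A difference in response was thus neither shown nor excluded by this test.

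The Tfrc sequence before the start is shown because its capitals include 2 motifs that none of the other printed windows holds: ACGTG, the core of the element bound by hypoxia-inducible factors, and TGACGT, part of the element bound by cyclic AMP-responsive factors. It lies at chr11:81690319-81690568 (minus strand, RefSeq, GRCr8).
Tfrc: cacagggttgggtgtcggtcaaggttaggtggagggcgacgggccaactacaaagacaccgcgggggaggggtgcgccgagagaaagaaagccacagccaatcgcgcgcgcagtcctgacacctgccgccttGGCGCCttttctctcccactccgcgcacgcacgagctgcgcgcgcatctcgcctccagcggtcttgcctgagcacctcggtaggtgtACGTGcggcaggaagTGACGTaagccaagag
ACGTG is in 16.6% and TGACGT in 6.95% of the 33469 promoters, and GGCGCC, also found here, in 8.69%. These matches describe the window alone.

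Hmox1, the stress-inducible haem oxygenase gene, was higher in microdissected glomeruli. Probe set 1370080_at had signals of 223, 246, 460 and 223 in LCM20. In LCM800 they were 400, 366, 271, 416 and 346. In sieved arrays they were 168, 180, 140 and 92.5. The lowest microdissected array, at 223, was above the highest sieved array, at 180, and LCM20 replicate 3 stood far above the other LCM20 arrays. Mean signals were 288 ± 115 in LCM20, 360 ± 56.6 in LCM800 and 145 ± 39.0 in sieved arrays (SD, n = 4, 5 and 4). Hmox1 rose by 0.72 ± 0.23 in LCM20 (limma, adjusted p = 0.0192) and by 1.02 ± 0.22 in LCM800 (adjusted p = 0.00123). The LCM800 call held in every one of the 23 alternatives in which it was tested. The LCM20 call ended without LCM20 replicate 3, at 0.51 (adjusted p = 0.0640), and without sieved replicate 4, the lowest sieved array, at 0.59 (adjusted p = 0.0707).

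Macrophages are a known site of Hmox1 expression, and their markers were set beside it. The 11 of 12 macrophage and leukocyte markers with a probe set summed to 6248 to 9709 in LCM20, 6283 to 7984 in LCM800 and 4421 to 5059 in sieved arrays. These sums too did not overlap between microdissected and sieved arrays, as held for 43.8% of single tested probe sets in LCM20 and 42.8% in LCM800. Lyz2, which encodes lysozyme and made up much of the sum, had 3500 to 6946 in LCM20, 2990 to 4817 in LCM800 and 2359 to 2874 in sieved arrays. Of the 8 tested, 3 rose and none fell in LCM20, and 5 rose and none fell in LCM800. Of all tested probe sets, 26.2% rose in LCM20 and 31.8% in LCM800. Laptm5, a leukocyte lysosomal gene, rose most, by 1.28 in LCM20 (adjusted p = 0.000165) and 1.71 in LCM800 (adjusted p = 6.45e-06), whereas C1qa was at −0.23 in LCM20 (adjusted p = 0.503) and −0.40 in LCM800 (adjusted p = 0.195). In LCM20 Cd14 was at −0.20 (adjusted p = 0.610) and Cd68 at −0.06 (adjusted p = 0.868), neither past the test. The defining markers C1qb and Itgam were dim in all groups, at 71.2 or less, and no marker was at 0. Within LCM20 the highest Hmox1 signal was on replicate 3, whereas the highest marker sum was on replicate 4, at 9709. The part of these cells in the Hmox1 difference was not tested.

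Hamp, the hepcidin gene, showed small differences in the same direction as Hmox1. Probe set 1387396_at had signals of 319, 278, 276 and 251 in LCM20. In LCM800 it had 304, 326, 179, 229 and 262. In sieved arrays it had 176, 159, 194 and 161. LCM20 and sieved arrays did not overlap, and LCM800 overlapped the sieved arrays through replicate 3 alone. Hamp rose by 0.54 ± 0.19 in LCM20 (limma, adjusted p = 0.0296), and its change in LCM800 was 0.43 (95% interval 0.05 to 0.82; adjusted p = 0.0537), which did not pass. The LCM20 call ended in 6 of 23 alternatives, with adjusted p values up to 0.0762, and the LCM800 change passed without LCM800 replicate 3, at 0.53 (adjusted p = 0.0224), and with no pseudocount, at 0.56 (adjusted p = 0.0496). The median of all tested probe sets was itself 0.17 in LCM20 and 0.22 in LCM800. Liver markers other than the members, all 7 with probe sets, summed to 711 to 1308 in LCM20, 1132 to 1714 in LCM800 and 676 to 1284 in sieved arrays. Of the 5 tested, LCM20 had Serpina1 higher (0.73, adjusted p = 0.0232) and Ttr lower (−0.63, adjusted p = 0.0391), with Alb at 0.58 (adjusted p = 0.102), Ambp at −0.41 (adjusted p = 0.374) and Fgb at −0.53 (adjusted p = 0.214). In LCM800 Alb, the albumin gene, was higher (1.15, adjusted p = 0.00229) and the other 4 did not pass, at −0.38 to 0.58. In LCM20 the markers that passed went in both directions, and their part in the Hamp difference was not tested.

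The Hamp window is shown for 2 motifs known from this promoter in human and mouse: GGCGCC, the element through which bone morphogenetic protein signalling acts, and TTCNNNGAA, the element bound by STAT factors. It lies at chr1:95300272-95300521 (minus strand, RefSeq, GRCr8).
Hamp: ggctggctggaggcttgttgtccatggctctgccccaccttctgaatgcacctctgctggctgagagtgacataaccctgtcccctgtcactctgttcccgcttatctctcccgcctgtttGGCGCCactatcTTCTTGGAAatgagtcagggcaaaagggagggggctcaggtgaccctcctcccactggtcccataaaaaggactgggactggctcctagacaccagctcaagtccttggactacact
The motifs are in 8.69% and 7.67% of all promoters of this length. Bmp6, the ligand that induces hepcidin in liver when iron is plentiful, had probe sets that went opposite ways, as given with the other genes.

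**Figure D3:**
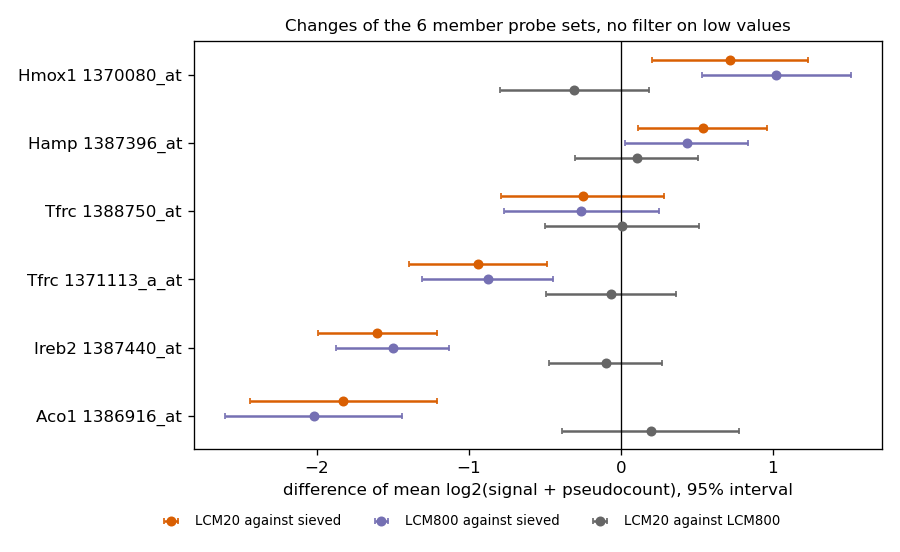
Change of each member probe set, as the difference of mean log2(signal + pseudocount) on the x axis with its 95% interval, from the fit with no filter so that all 6 probe sets appear; colours are the 3 comparisons. The intervals for LCM20 against LCM800 include 0 for all 6, while those of Aco1, Ireb2 and Tfrc 1371113_a_at against sieved lie below 0 and those of Hmox1 and Hamp above. The Hamp change in LCM800 did not pass after adjustment (limma, adjusted p = 0.0751).

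No member differed detectably between the microdissected groups. In LCM20 against LCM800, where 0.153% of all tested probe sets were called, none of the 4 tested member probe sets passed with limma, and none had an unadjusted p under 0.05. The differences were −0.31 for Hmox1 (95% interval −0.77 to 0.16), 0.20 for Aco1 (−0.39 to 0.78), 0.11 for Hamp (−0.28 to 0.49) and 0.01 for Tfrc 1388750_at (−0.52 to 0.53). With no filter, where 0.063% of probe sets were called, the differences were −0.10 for Ireb2 (−0.47 to 0.27) and −0.06 for Tfrc 1371113_a_at (−0.49 to 0.37). None of the 4 was called without LCM800 replicates 4 and 5 either, a setting in which 2581 of 11106 probe sets were.

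Ferritin and transferrin could be followed only through probe sets with several symbols, where copies of a gene cannot be told apart. Probe set 1367559_at carries 5 symbols, Ftl1 among them. It had signals of 731, 456, 746 and 1420 in LCM20, and of 346, 444, 487, 537 and 396 in LCM800. In sieved arrays it had 7714, 7839, 5120 and 7086. All sieved arrays were far above all the others, and sieved replicate 3 was again the lowest of its group. The probe set fell by 3.04 ± 0.28 in LCM20 (limma, adjusted p = 1.07e-06) and fell by 3.78 ± 0.26 in LCM800 (adjusted p = 8.48e-08), and the calls held in all 24 alternatives. The difference between LCM20 and LCM800 was 0.74 (0.18 to 1.30; adjusted p = 0.180) and did not pass.

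Probe set 1367565_a_at carries 2 symbols, Fth1 among them. It was among the brightest described here, with 10394, 13062, 7653 and 10287 in LCM20, and 5123, 8896, 8923, 8611 and 12308 in LCM800. In sieved arrays it had 11271, 11536, 8797 and 9632. The groups overlapped, and the changes of −0.01 (95% interval −0.58 to 0.56; limma, adjusted p = 0.978) in LCM20 and −0.28 (−0.81 to 0.26; adjusted p = 0.375) in LCM800 did not pass. The probe sets with ferritin light and heavy chain symbols thus gave a fall of 8.22-fold in LCM20 and 13.7-fold in LCM800 for the first, on the scale of signal plus pseudocount, and no detectable change for the second. Probe set 1370228_at carries 2 symbols, Tf among them, and did not pass the filter. Its signals were 37.6, 40.0, 24.8 and 127 in LCM20, and 218, 152, 28.0, 24.1 and 38.3 in LCM800. In sieved arrays they were 272, 316, 140 and 316. LCM800 overlapped the sieved arrays through replicates 1 and 2. With no filter it fell by 1.44 ± 0.38 in LCM20 (limma, adjusted p = 0.00799) and fell by 1.18 ± 0.36 in LCM800 (adjusted p = 0.0151), and the LCM800 call ended without LCM800 replicates 4 and 5, at −0.82 (adjusted p = 0.0921).

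**Figure D4:**
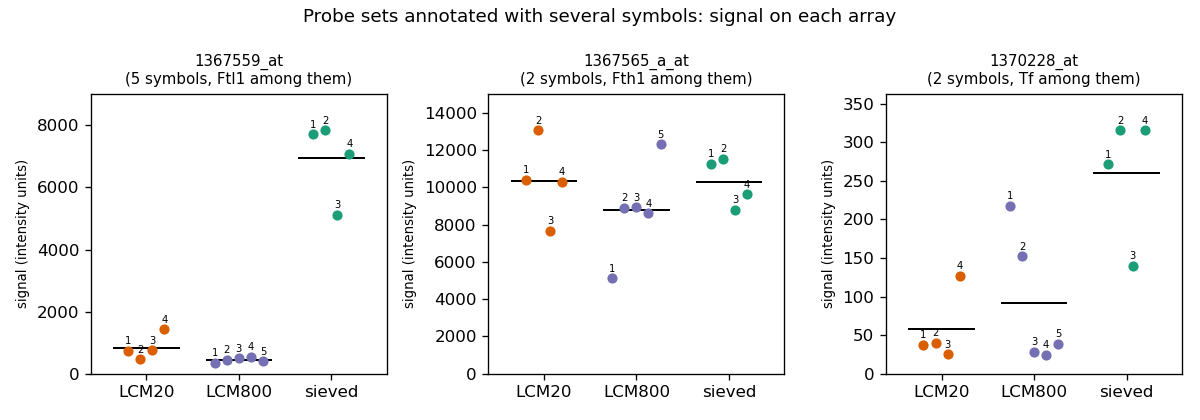
Signal on each array of the 3 probe sets whose annotation names Ftl1, Fth1 or Tf together with other genes, in intensity units from 0; points are arrays with their replicate number and bars are group means. The first is at 1420 or less on all microdissected arrays and at 5120 or more on all sieved arrays, whereas the second overlaps between all groups.

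Sieved replicate 3 was the lowest sieved array for Aco1, for both Tfrc probe sets and for all 3 probe sets with several symbols, and the highest for Ireb2 and Hamp. For Hmox1 it was neither, as replicate 4 was the lowest. The spread among arrays of a group was smallest for Hamp in sieved and LCM20 arrays, with SDs of 0.10 and 0.12 in log2, and the highest SD of a member in the sieved group was 0.51, for Tfrc 1388750_at.

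The closest patterns among 8077 other genes were found by the root mean square difference of centred log2 values over the 13 arrays, where genes share the group differences and array effects. The genes closest to Aco1 were Sult1b1 (0.20) and Gde1 (0.24), against a median of 1.14 over all genes, and their changes were −1.68 and −1.88 in LCM20 and −1.94 and −2.17 in LCM800. Closest to Hmox1 were Ptrh2 and Rup2, both at 0.15 against a median of 0.63. Closest to Hamp were Tead2 (0.10) and Smarcal1 (0.15), against a median of 0.53, and closest to Tfrc 1388750_at were Apoc3 and Slc2a4, both at 0.19 against a median of 0.63. Between members, Aco1 and Ireb2 were at 0.52 and Hmox1 and Hamp at 0.38, while Hmox1 and Aco1 were at 1.40. Tfrc 1371113_a_at was at 0.45 from Ireb2, nearer to it than Aco1 was, and at 0.57 from Aco1.

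Other genes of iron transport and its control were lower more often than higher against sieved. Of 28 listed, 19 had a probe set with 1 symbol and 18 were tested, of which 4 rose, 6 fell and 8 did not pass in LCM20, and 3 rose, 9 fell and 6 did not pass in LCM800. Over all tested probe sets, 26.2% rose and 19.2% fell in LCM20, and 31.8% rose and 20.1% fell in LCM800. Neither this list nor those below were tested as sets. The median change was −0.41 in LCM20 and −0.59 in LCM800, beside 0.17 and 0.22 for all tested probe sets in the same comparisons. Cubn, which encodes the tubular receptor cubilin that takes up filtered transferrin, fell by 3.40 ± 0.41 in LCM20 (limma, adjusted p = 1.43e-05), with mean signals of 935 in LCM20 and 9124 in sieved arrays, and fell by 3.85 ± 0.39 in LCM800 (adjusted p = 2.30e-06). Lrp2, the gene of its partner megalin, fell by 2.09 ± 0.23 in LCM800 (adjusted p = 4.22e-06). Cubn and Lrp2 are also in the proximal tubule marker list, all 12 genes of which fell in both comparisons. Slc39a8, which encodes a metal ion importer, fell by 1.71 ± 0.39 in LCM20 (adjusted p = 0.00249), and Slc11a2, the divalent metal transporter gene, fell by 1.22 (adjusted p = 0.00690). The brighter Bmp6 probe set rose by 1.05 ± 0.28 in LCM20 (adjusted p = 0.00640) and by 1.18 ± 0.26 in LCM800 (adjusted p = 0.00164). The other Bmp6 probe set lay under the filter, was not tested and went the opposite way, with mean signals of 27.4 ± 5.78 in LCM20, 31.2 ± 6.37 in LCM800 and 193 ± 183 in sieved arrays (SD, n = 4, 5 and 4), so no direction is given for the gene. Fbxl5, the iron-sensing part of the ubiquitin ligase that marks the Ireb2 protein for degradation, rose by 1.21 ± 0.44 in LCM20 (adjusted p = 0.0350), and its change in LCM800 was 0.57 (adjusted p = 0.267), with the difference between these groups at 0.64 (adjusted p = 0.428). Heph, a ferroxidase gene, rose by 0.89 ± 0.25 in LCM20 (adjusted p = 0.00868) and by 0.79 ± 0.23 in LCM800 (adjusted p = 0.0108). Slc40a1, the ferroportin gene, changed by −0.02 in LCM20 (adjusted p = 0.949) and −0.22 in LCM800 (adjusted p = 0.448) and did not pass.

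Genes of haem synthesis moved in both directions. Of 12, 8 were tested, and 3 rose and 2 fell in LCM20 while 2 rose and 3 fell in LCM800, with medians of 0.19 in LCM20 and −0.07 in LCM800. Over all tested probe sets, 26.2% rose and 19.2% fell in LCM20, and 31.8% rose and 20.1% fell in LCM800. Alas2, the first enzyme of haem synthesis in red cell precursors, rose by 2.03 ± 0.39 in LCM20 (limma, adjusted p = 0.000615) and by 2.42 ± 0.37 in LCM800 (adjusted p = 7.09e-05). Its mean signals were 425 in LCM20, 516 in LCM800 and 40.7 in sieved arrays, the last under the pseudocount. Another red cell marker went the other way: Slc4a1, the red cell anion exchanger gene, fell by 2.32 in LCM20 (adjusted p = 0.000169), and the 4 of 8 red cell markers with a probe set, Alas2 among them, summed to 629 to 3799 in LCM20, 861 to 2616 in LCM800 and 838 to 2333 in sieved arrays. Urod, whose enzyme trims side chains of the haem precursor, rose by 1.48 ± 0.36 in LCM20 (adjusted p = 0.00340) and by 1.58 ± 0.34 in LCM800 (adjusted p = 0.00122). Tmem14c, a mitochondrial membrane protein gene needed for a late step, fell by 1.56 ± 0.32 in LCM20 (adjusted p = 0.000962) and fell by 1.96 ± 0.30 in LCM800 (adjusted p = 7.64e-05). Abcb6, a porphyrin transporter gene, fell by 0.59 ± 0.21 in LCM20 (adjusted p = 0.0288) and by 0.53 ± 0.20 in LCM800 (adjusted p = 0.0316). Ppox, of the next to last step, fell by 1.12 ± 0.34 in LCM800 (adjusted p = 0.0118), with −0.66 in LCM20 (adjusted p = 0.139), which did not pass.

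In the breakdown, binding and transport of haem, 9 of 14 genes were tested and 1 rose and 4 fell in each comparison, with medians of −0.73 in LCM20 and −0.90 in LCM800. The shares over all tested probe sets were 26.2% higher and 19.2% lower in LCM20, and 31.8% higher and 20.1% lower in LCM800. Hmox2, the constitutive haem oxygenase gene, fell by 1.81 ± 0.34 in LCM20 (limma, adjusted p = 0.000502) and fell by 1.87 ± 0.32 in LCM800 (adjusted p = 0.000196), so that the genes of both haem oxygenases passed in opposite directions. Hmox2 had mean signals of 126 in LCM20, 125 in LCM800 and 586 in sieved arrays. Blvra, which encodes the reductase for the biliverdin made by haem oxygenase, fell too, with changes of −1.38 in LCM20 (adjusted p = 0.00142) and −1.31 in LCM800 (adjusted p = 0.00120). Pgrmc1, a haem-binding membrane protein gene, fell by 1.39 ± 0.35 in LCM20 (adjusted p = 0.00418) and fell by 1.97 ± 0.33 in LCM800 (adjusted p = 0.000155). The gene that rose was Hebp1, of a haem-binding protein, by 1.53 ± 0.38 in LCM20 (adjusted p = 0.00408) and 1.50 ± 0.36 in LCM800 (adjusted p = 0.00274).

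Iron-sulfur cluster genes, which make the cofactor that turns Aco1 protein into an aconitase, had 11 of 17 tested, with 4 higher and 2 lower in each comparison and medians of 0.28 in LCM20 and 0.25 in LCM800. The shares over all tested probe sets were 26.2% higher and 19.2% lower in LCM20, and 31.8% higher and 20.1% lower in LCM800. These counts do not set the list apart from the array. Nfs1, the cysteine desulfurase gene that supplies the sulfur, fell by 2.34 ± 0.30 in LCM20 (limma, adjusted p = 2.30e-05) and fell by 2.48 ± 0.29 in LCM800 (adjusted p = 6.40e-06). Glrx5, which passes clusters on, fell by 1.14 ± 0.24 in LCM20 (adjusted p = 0.00114) and fell by 0.89 ± 0.22 in LCM800 (adjusted p = 0.00360). Fdx1, a ferredoxin gene, rose by 1.70 ± 0.31 in LCM20 (adjusted p = 0.000419) and by 1.07 ± 0.29 in LCM800 (adjusted p = 0.00644), and Nfu1, a scaffold gene, rose by 1.23 ± 0.20 in LCM20 (adjusted p = 0.000168) and by 0.96 ± 0.19 in LCM800 (adjusted p = 0.000660). The scaffold gene Iscu did not pass in either, with changes of 0.28 in LCM20 and −0.02 in LCM800.

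Regulators of Hmox1 and genes under the same control had 10 of 12 tested, with 4 higher and 1 lower in LCM20 and 3 higher and 1 lower in LCM800, and medians of −0.11 in LCM20 and −0.32 in LCM800. Over all tested probe sets, 26.2% rose and 19.2% fell in LCM20, and 31.8% rose and 20.1% fell in LCM800. These counts do not set the list apart from the array. Nfe2l2, which encodes the transcription factor NRF2 that drives Hmox1 under oxidative stress, did not pass, with changes of 0.10 in LCM20 (limma, adjusted p = 0.867) and −0.71 in LCM800 (adjusted p = 0.142). Its targets were split. Srxn1 rose by 1.66 ± 0.37 in LCM20 (adjusted p = 0.00216) and by 1.72 ± 0.35 in LCM800 (adjusted p = 0.000914), with a mean signal under the pseudocount in sieved arrays, at 45.6. Nqo1 rose by 1.06 in LCM20 (adjusted p = 0.00230) and by 1.22 ± 0.23 in LCM800 (adjusted p = 0.000439), whereas Gclm, of glutathione synthesis, fell by 1.54 ± 0.56 in LCM20 (adjusted p = 0.0354) and fell by 1.46 ± 0.53 in LCM800 (adjusted p = 0.0318). Keap1, which holds NRF2 in check, rose by 0.70 in LCM20 (adjusted p = 0.0190) and 0.97 in LCM800 (adjusted p = 0.00149). Epas1, the gene of hypoxia-inducible factor 2α, rose by 1.66 ± 0.46 in LCM20 (adjusted p = 0.00831) and changed by 0.44 in LCM800 (adjusted p = 0.407), and its difference between these groups, 1.21, did not pass (adjusted p = 0.180). Its dimmer probe set went the other way without passing, at −0.72 in LCM20 (adjusted p = 0.0748).

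**Figure D5:**
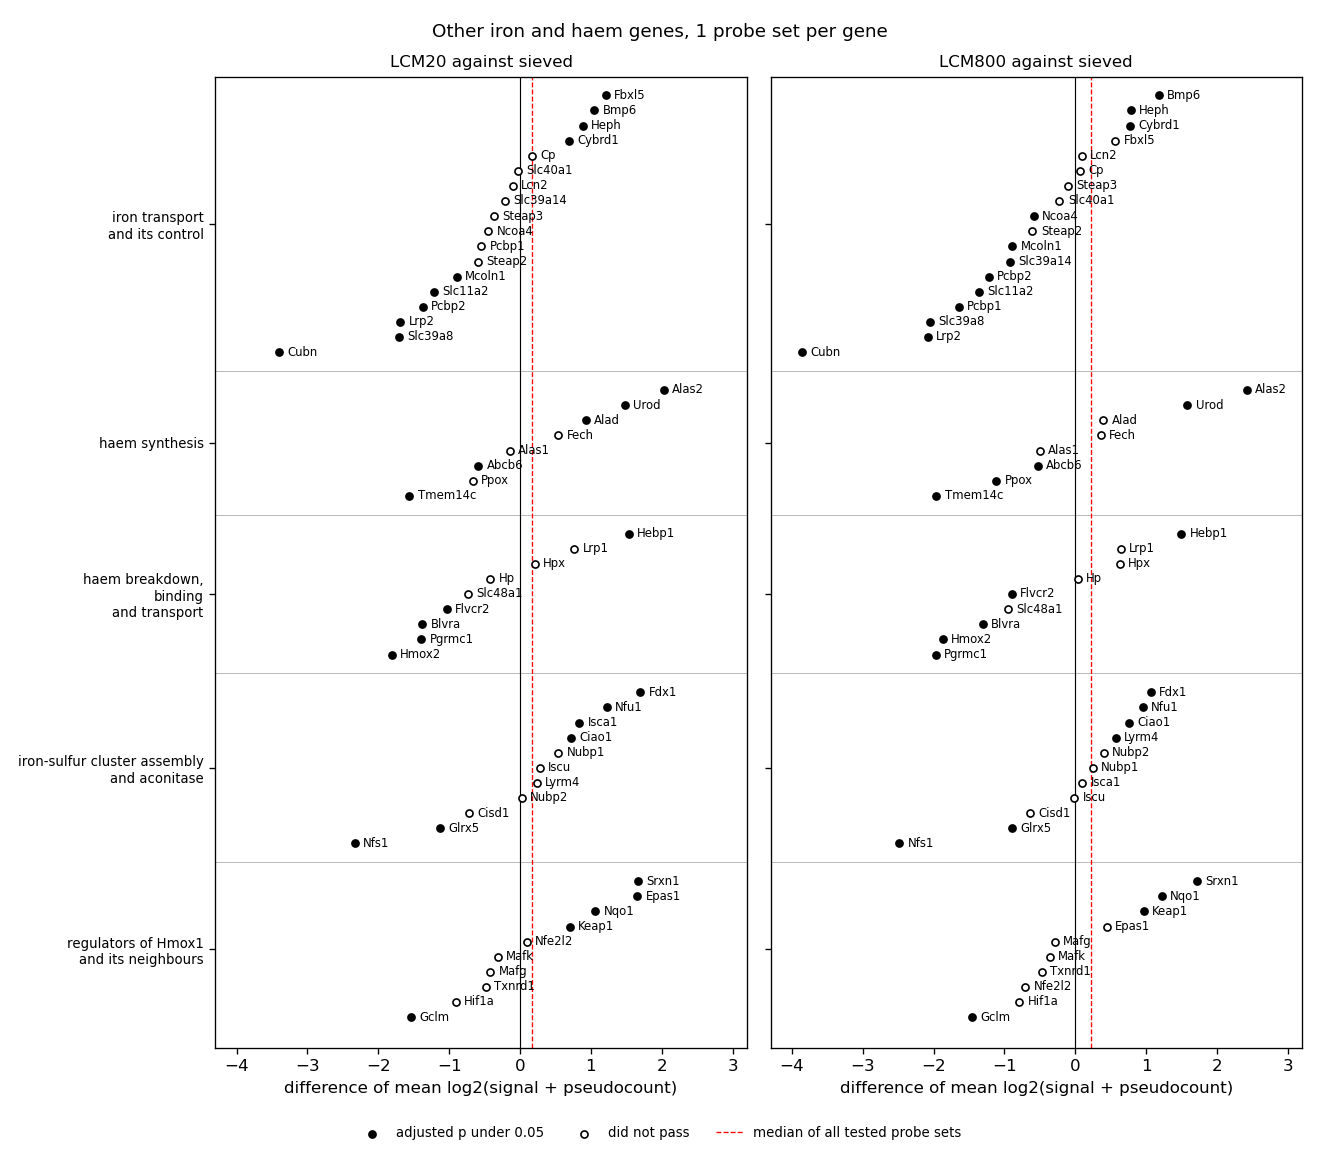
Change of each tested gene of the 5 other iron and haem lists, on the x axis as the difference of mean log2(signal + pseudocount), for LCM20 against sieved (left) and LCM800 against sieved (right); filled points passed at an adjusted p of 0.05, open points did not, and the dashed line is the median of all tested probe sets. Both comparisons share the sieved arrays, and in each Cubn is the lowest gene and Alas2 the highest.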

How the data were processed

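The authors deposited linear intensity signals of Affymetrix Rat 230A arrays, with 1 column for each of 13 samples and 15923 probe sets. The submitters' processing notes name MAS5. Their trimmed mean, without 2% at each end, was 500 on every array, so no further normalization was applied. From these, log2(signal + 65.3) was computed, the 57 control probe sets and the lowest 30% by mean log2 were left out, and 11106 were tested with limma 3.58.1 in R 4.3.3 (intensity trend, 3 groups in 1 fit, no covariate, Benjamini-Hochberg at 0.05). Such a change understates that of dim genes. Symbols came from the platform annotation: 12783 probe sets had 1, 312 had several and 2771 none. A gene in a list is its brightest probe set. Named genes are the members, per list and comparison the 2 largest rises and falls past the test, and the 2 closest patterns per member. Exceptions, named after their values were seen, are Slc11a2, Slc40a1, Slc4a1, Hbb, Blvra, Iscu, Nfe2l2, Keap1 and the single liver and macrophage markers. The members and lists were chosen with earlier results of these data known. The fit was tested on simulated data. Promoter sequences came from RefSeq (GRCr8). Alternatives changed the scaling, pseudocount, filter, trend, block, groups and arrays used.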

Additional observations from a re-analysis of the deposited data

Results flagged for a closer look

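Over 27 sets of arrays, 9 probe sets in 3 groups, 3 held an array that stood apart from the others of its group by a Dixon test, which chance gives in about 1 of 20 sets. The Hmox1 signal of LCM20 replicate 3, at 460, stood above 223 to 246 on the other LCM20 arrays, and the LCM20 call for Hmox1 ended without it. In the sieved group replicate 3 stood below the others for Aco1, at 1319 beside 2378 to 2631, and for Tfrc 1388750_at, at 629 beside 1251 to 1422. The same array had the lowest proximal tubule marker sum of its group, 60655 beside 96267 to 111511. The part of these arrays' makeup in the values was not tested.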

How the results depend on the processing

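Aco1 and Hmox1 in LCM800, and Aco1 in LCM20, kept their call in each alternative that tested them, with changes of −2.24 to −1.69, 0.61 to 1.34 and −2.05 to −1.55. No called change of a member reversed. The LCM20 call for Hmox1 ended in 2 of 23 alternatives and that for Hamp in 6 of 23. The count of member probe sets called was 4 in LCM800 and 5 in LCM20 with no filter, where 6 were tested, and 1 in each with the lowest 60% left out, where 2 were tested. Leaving out each replicate gave 2 to 3 in LCM800, 1 to 3 in LCM20, the lowest without sieved replicate 4, and 0 in LCM20 against LCM800. Over all probe sets, leaving out the lowest 60% gave 3503 calls in LCM800 and 3260 in LCM20 of 6346 tested, fewer because fewer were tested, against 5764 and 5035. The 17 calls of LCM20 against LCM800 became 10 with no pseudocount, 10 with no filter, 0 with only the 2 groups compared (1496 at an unadjusted p under 0.05 in limma), 0 to 502 without each replicate (502 without LCM800 replicate 4) and 2581 without LCM800 replicates 4 and 5, a setting chosen after seeing the data; the cause was not tested. With the replicate number as a block there were 0 (2473 at an unadjusted p under 0.05 in limma). Deviations from the group means of same-numbered arrays correlated at −0.24 to 0.23, and those of other pairs at −0.42 to 0.37. These values show no pairing by number but cannot exclude one, since array effects also enter the deviations. Under the block the count of members called was 2 in LCM800 and 2 in LCM20, where Hamp had an adjusted p of 0.0569 in limma. Dim signals such as those of Ireb2 on microdissected arrays have no dependable size.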
